A study of Saccharomyces cerevisiae BY4741 with 40 samples.

Results

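The transcription start sites of 10 genes that control or carry out meiosis in budding yeast, *IME1*, *IME2*, *IME4*, *NDT80*, *SPO11*, *RME1*, *UME6*, *RIM4*, *SPO13* and *HOP1*, were described together with the start sites on the strand opposite to them. The unit is the transcription start site cluster (TSSC), a group of neighbouring capped 5′-ends. A TSSC was taken where its annotated gene is one of the 10, or where it lies on the other strand with its midpoint within 500 nt of the ORF. This gave 39 of 17812 TSSCs in the first experiment and 36 of 21707 in the second. The first 39 hold 9 mRNA TSSCs (sense, over the annotated 5′ leader), 7 sense internal TSSCs (within the ORF or the 3′-UTR) and 23 opposite-strand TSSCs. The second 36 hold 6, 15 and 15.

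The first experiment, called *RRP6* here, held a wild-type, the single mutants *upf1∆* and *rrp6∆*, and their double mutant *upf1∆rrp6∆*. The second, called *SET2*, held a wild-type, *upf1∆*, *set2∆* and the double mutant *upf1∆set2∆*. Each genotype had 3 libraries of poly(A)+ RNA. All strains, the controls included, are haploid *MATa* derivatives of BY4741 (*his3∆1*, *leu2∆0*, *ura3∆0*, *met15∆0*) that also carry *can1∆*, grown to mid-exponential phase in rich YPD medium. Such cells divide by mitosis and cannot enter meiosis, so every value below is that of a gene in cells that do not use the meiotic program. The deposited tables give 1 pooled whole number of normalized reads per TSSC and genotype, so no value has an SD and no test between genotypes was possible. Log2 ratios were taken after adding 1 to both values, and "higher" or "lower" in a count means more than 2-fold. Values of 3 or less are given without a ratio.

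Entry into meiosis in this yeast is decided at the promoter of *IME1*, whose product switches on the early meiotic genes. Many of these carry the site of Ume6, a DNA-binding protein that recruits a histone deacetylase to hold them silent during mitosis. In haploid cells, Rme1 drives transcription of the non-coding IRT1 RNA through the *IME1* promoter, and the antisense RNA RME2 runs across *IME4*, both known to keep the sense gene off. Upf1 is the core factor of nonsense-mediated mRNA decay (NMD), which removes translated RNAs with an early stop codon from the cytoplasm. Rrp6 is the nuclear exosome subunit that degrades cryptic unstable transcripts (CUTs). Set2 methylates histone H3 on a lysine in transcribed genes and is known to keep internal start sites silent.

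The core of the Ume6 site, GGCGGC on either strand, was looked for in the 600 nt before each ORF. It was found before 7 of the 10 genes, beside 11.4% of 5999 protein-coding genes. *IME1*, *NDT80* and *SPO11* had no match. A match is a description of letters and not a test of binding. In the R64 sequence, written 5′ to 3′ on the strand of the gene with the core in capitals, the following windows show it before each of the 7 genes. *RIM4* and *HOP1* have 1 more match each. The core is on the other strand, and so reads as its reverse complement, in the windows of *SPO13* and *RME1* and the proximal window of *UME6*. *RME1* and *UME6* had the highest mRNA values of the 10 genes in wild-type cells of both experiments.
IME2 distal, chrX:220828-220857: aatttatgttacGGCGGCtatttgagtttt
IME2 proximal, chrX:220923-220952: gcgcgagacttcGGCGGCaaaaagccacag
RIM4, chrVIII:56355-56384: gcttaacgtttcGGCGGCtgtgatcaagga
IME4, chrVII:142002-142031: tatgcgtctttaGGCGGCttttggcgtaca
HOP1, chrIX:226419-226448: gtttttaacctgGGCGGCtaaattgtactt
SPO13, chrVIII:131940-131969: tattgagaaataGCCGCCgacaaaaaggaa
RME1, chrVII:584293-584322: tcacgtaaaatgGCCGCCggagtgagatgt
UME6 distal, chrIV:867941-867970: tttcccagaatgGGCGGCacgttcttatgt
UME6 proximal, chrIV:867647-867676: caggcggaaactGCCGCCgtcaaaaagaaa

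The core of the site of Ndt80, the activator of the middle meiotic genes, is CACAAA, searched on both strands. It was found before *IME1*, *IME2* and *NDT80*, 3 of the 10 genes, beside 34.3% of all protein-coding genes. This share is near the background.

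**Figure D1:**
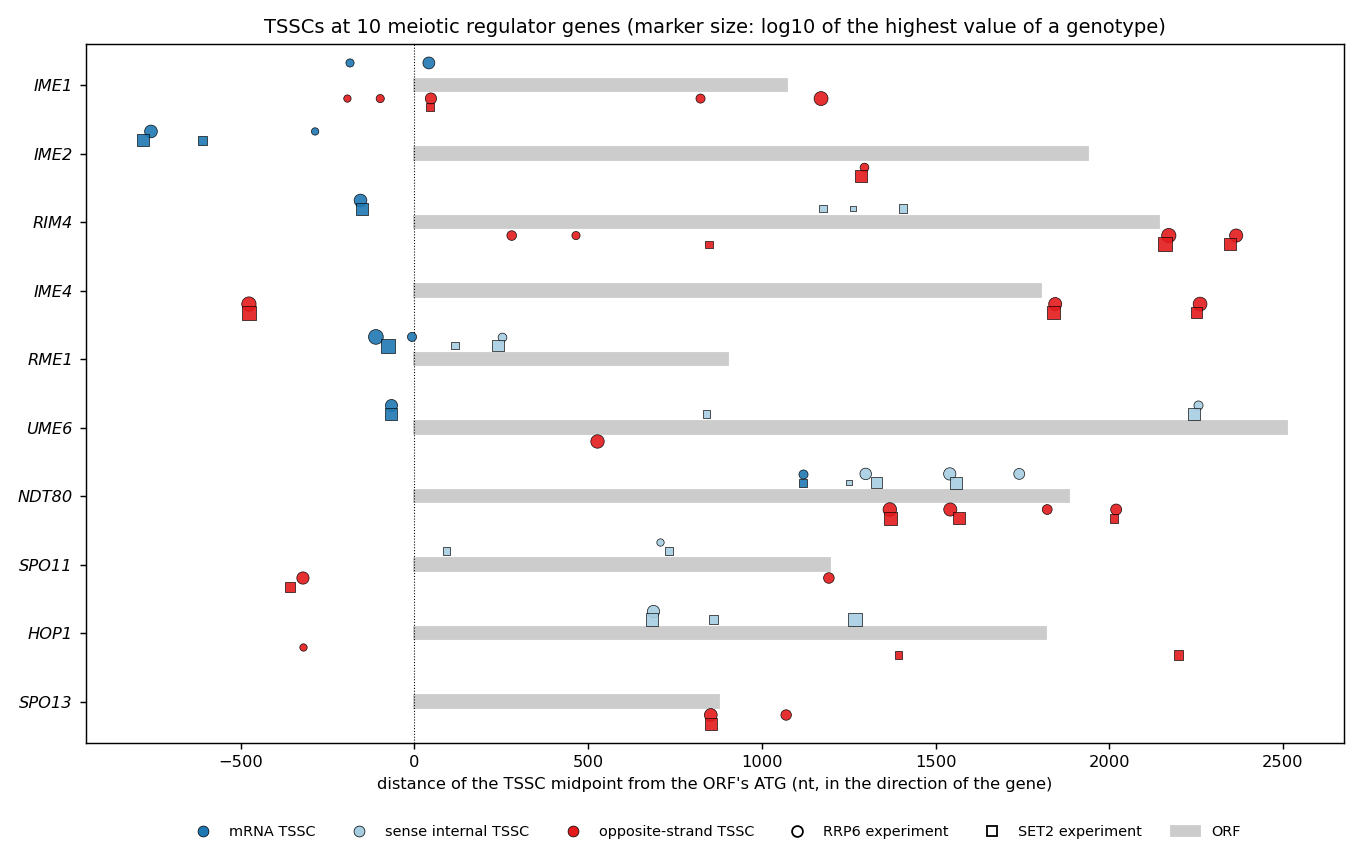
Position of every TSSC of the 10 genes, as the distance in nt of its midpoint from the ATG of the ORF (grey bar), with sense TSSCs above and opposite-strand TSSCs below the bar. Circles are the *RRP6* and squares the *SET2* experiment, and the marker grows with the log10 of the highest value among the genotypes. The mRNA TSSCs of *IME2* lie far upstream of the ATG, and *IME4*, *SPO11*, *HOP1* and *SPO13* have no mRNA TSSC in either experiment.

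An mRNA TSSC was listed for 6 of the 10 genes in the *RRP6* experiment (*IME1*, *IME2*, *NDT80*, *RIM4*, *RME1* and *UME6*). In the *SET2* experiment there were 5, without *IME1*. Over all genes, 5231 and 5234 had one in the 2 experiments, beside the 5999 protein-coding genes searched for sites above. No mRNA TSSC was listed for *IME4*, *SPO11*, *HOP1* and *SPO13*. A TSSC enters a table only above a minimum number of reads in a library and after filters on the cap, so one that is not listed may still be made at a lower level. On the opposite strand, at least 1 TSSC was listed for 9 genes in the *RRP6* experiment and 8 in the *SET2* experiment. *RME1* had none in either, and *UME6* had none in the *SET2* experiment. The share of all genes with an opposite-strand TSSC was not computed, so these counts have no background.

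Over all TSSCs, the values of a genotype summed to between 3914205 and 4985459. The only comparison made in both experiments is that of *upf1∆* with wild-type, and its difference between them served as the error. Over 13271 pairs of TSSCs that overlap on the same strand, the SD of the difference in the log2 ratio was 0.24 at mean values of 100 or more, 0.37 at 30 to 100, 0.42 at 10 to 30, 0.64 at 3 to 10 and 0.77 under 3. The *RRP6* mRNA TSSC had values of 86, 88, 2 and 7 in wild-type, *upf1∆*, *rrp6∆* and double-mutant cells, and the *SET2* mRNA TSSC had 40, 26, 6 and 13 in wild-type, *upf1∆*, *set2∆* and double-mutant cells. The mRNA TSSC of *NAM7*, the gene of Upf1, had 220, 176, 280 and 349 in the *RRP6* and 111, 165, 110 and 101 in the *SET2* experiment, and so was not 2-fold lower in any genotype without Upf1. It ends 55 and 67 nt upstream of the ATG in the 2 tables, and the *SET2* TSSC ends 54 nt upstream in its experiment, so neither lies in the ORF and neither tests its deletion. The *RRP6* TSSC runs from 45 nt upstream to 33 nt downstream of the ATG. All strains are given as *can1∆*, yet the mRNA TSSC of *CAN1* had 1354, 1303, 1653 and 1539 in the *RRP6* experiment. In the *SET2* experiment it had 1353, 1180, 2161 and 1597. That of *HIS3* had 1945 and 1876 in the 2 wild-types, and none was listed for *URA3* and *LEU2*. Whether the *CAN1* and *HIS3* TSSCs lie in the deleted parts was not examined. All 7 *MATa* marker genes had an mRNA TSSC, with a summed value in wild-type of 8059 in the *RRP6* and 7497 in the *SET2* experiment. The 4 *MATα* markers summed to 112 and 84. No TSSC was listed for *MF(ALPHA)1*, and *MF(ALPHA)2* had 18 in *set2∆* and 11 in *upf1∆set2∆* cells and was at 0 or not listed elsewhere.

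*IME1* (YJR094C), the master activator of meiotic entry, was weakly expressed. Its main mRNA TSSC, on the minus strand of chromosome X from 605546 to 605649, runs from 10 nt upstream to 93 nt downstream of the ATG used here. By the RefSeq ORF, which starts at 605651, this TSSC lies wholly inside the ORF. Its values were 20 in wild-type, 33 without Upf1, 22 without Rrp6 and 33 in the double mutant. Both genotypes without Upf1 were above both with it. The log2 ratio of *upf1∆* over wild-type was 0.70, which is under 2-fold. A minor TSSC further upstream, the only one before the RefSeq ATG, reached 3. The *SET2* experiment listed no sense TSSC of *IME1*.

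Upstream of *IME1*, on the same strand, IRT1 (annotated in RefSeq from 605936 to 607424 on the minus strand of chromosome X) was far stronger than *IME1* itself. The TSSC that holds the annotated start of IRT1, from 607377 to 607507, has its midpoint 1803 nt upstream of the *IME1* ATG and is named XUT_10R-233 in the files, an Xrn1-sensitive unstable transcript (XUT). It had values of 80, 393, 55 and 336 in wild-type, *upf1∆*, *rrp6∆* and double-mutant cells. The *upf1∆* and the double mutant were both high, and *rrp6∆* was the lowest. The log2 ratio of *upf1∆* over wild-type was 2.28. The same TSSC had, in the *SET2* experiment, 42, 311, 17 and 153 in wild-type, *upf1∆*, *set2∆* and double-mutant cells, with a log2 ratio of 2.86 in *upf1∆*. Here *set2∆* cells were lower than wild-type by a log2 ratio of -1.26, and the double mutant was lower than *upf1∆* by -1.02. A weaker TSSC of the same transcript, from 607155 to 607281, had 8, 75, 15 and 166 in the *RRP6* experiment. The double mutant was close to *upf1∆* at the annotated start (log2 ratio -0.23) and more than 2-fold above it at this one (1.14). Another TSSC, from 606605 to 606684, had 12, 31, 27 and 57 in the *RRP6* and 12, 29, 14 and 23 in the *SET2* experiment, where the TSSC from 607171 to 607212 had 1, 26, 2 and 33. The remaining TSSCs of this RNA reached at most 6.

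Just past the 3′ end of the *IME1* ORF, the opposite strand carried the start of a CUT. The TSSC of CUT_GIM_1028, on the plus strand from 604438 to 604499, had 5 in wild-type, 4 without Upf1, 107 without Rrp6 and 176 in the double mutant. It was high only in the 2 genotypes without Rrp6, with a log2 ratio of 4.17 for *rrp6∆* over wild-type and 0.71 for the double mutant over *rrp6∆*. An intergenic TSSC opposite to the 5′ end of the *IME1* ORF, from 605576 to 605607, had 5, 8, 6 and 21. It passed 2-fold only in the double mutant. The other 3 opposite-strand TSSCs of *IME1* in this experiment reached at most 5, and the only one in the *SET2* experiment reached 4.

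*IME2* (YJL106W), a kinase gene that Ime1 activates, had the largest ratio of *upf1∆* over wild-type of any mRNA TSSC of the 10 genes. Its main TSSC, on the plus strand of chromosome X from 220576 to 220687, lies 703 to 814 nt upstream of the ATG. Its values were 9 in wild-type, 63 without Upf1, 8 without Rrp6 and 58 in the double mutant. The genotypes with and without Upf1 did not overlap, and the deletion of *RRP6* made little difference within either pair. The log2 ratio of *upf1∆* over wild-type was 2.68. The TSSC of the *SET2* experiment, from 220573 to 220643, had 7, 49, 9 and 47 in wild-type, *upf1∆*, *set2∆* and double-mutant cells. Its log2 ratio was 2.64, which differs from the first by 0.04, against an SD of 0.37 at this level.

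This start is upstream of both Ume6 cores of *IME2* printed above, whose first bases lie 550 and 455 nt before the ATG. A leader of this length is rare: of 3542 mRNA TSSCs that end upstream of the ORF in the *RRP6* experiment, 2.26% end 700 nt or more before the ATG. An ATG lies between the TSSC and the ORF in 20.5% of them, and 6 or more in 4.94%. The *IME2* leader holds 6. The first stands 6 nt after the end of the TSSC and opens a reading frame of 22 codons that stops 628 nt before the *IME2* ATG. It is shown because a short upstream frame is known to mark mRNAs for NMD, with the ATG in capitals.
IME2 first upstream ATG, chrX:220681-220710: gactccgcactcATGgtaagtagaaaaaga

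Closer to the ORF, *IME2* had only weak starts. A 1-nt TSSC 286 nt upstream of the ATG, downstream of both Ume6 cores, reached 2 in the *RRP6* experiment. One 608 to 610 nt upstream reached 5 in the *SET2* experiment. On the opposite strand, a TSSC inside the *IME2* ORF, from 222652 to 222697, had 0 in wild-type, 6 without Upf1, 8 without Set2 and 28 in the double mutant. Each single mutant was above wild-type and the double mutant was above both. The matching TSSC of the *RRP6* experiment reached 4.

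*RIM4* (YHL024W) encodes an RNA-binding protein required for meiotic gene expression. Its mRNA TSSC, on the plus strand of chromosome VIII from 56485 to 56502, had 20, 27, 22 and 63 in wild-type, *upf1∆*, *rrp6∆* and double-mutant cells. Only the double mutant stood apart, with a log2 ratio of 1.61 over wild-type and 1.19 over *upf1∆*. It had, in the *SET2* experiment, 13, 17, 32 and 19, and *set2∆* was the one value more than 2-fold above wild-type (log2 ratio 1.24). The ratio of *upf1∆* over wild-type was 0.42 and 0.36 in the 2 experiments. No ATG lies in the leader of 147 to 164 nt. Whether ATGs in a leader bear on these ratios was not tested.

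The 3′ end of *RIM4* carried the strongest XUT opposite to the 10 genes. The TSSC of XUT_8R-26, on the minus strand from 58745 to 58896, had 38, 161, 33 and 243 in wild-type, *upf1∆*, *rrp6∆* and double-mutant cells. The 2 genotypes without Upf1 were high and the 2 with it were low, with a log2 ratio of 2.05 in *upf1∆*. Its *SET2* experiment values were 26, 122, 25 and 111, with a log2 ratio of 2.19, and the deletion of *SET2* made no difference past 2-fold. The stable unannotated transcript SUT574, whose TSSC lies from 58950 to 59079, had 23, 82, 32 and 92, and in the *SET2* experiment 11, 53, 13 and 43. It followed the same order of high and low genotypes. At both, the wild-type value was above that of the *RIM4* mRNA in the *RRP6* experiment. Within the *RIM4* ORF, the other TSSCs of XUT_8R-26 reached at most 7 in the *RRP6* experiment and 2 in the *SET2* experiment, and 3 sense internal TSSCs in the *SET2* experiment reached at most 3.

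*IME4* (YGL192W) encodes the RNA methyltransferase that forms N6-methyladenosine in meiosis, and no sense TSSC was listed for it in either experiment. Its antisense RME2 was listed. RefSeq places RME2 on the minus strand of chromosome VII from 141898 to 144120, and the files name the gene at its start YGL193C. The TSSC that holds the start, from 144043 to 144138, had 20, 75, 18 and 83 in wild-type, *upf1∆*, *rrp6∆* and double-mutant cells. In the second experiment it had 16, 62, 19 and 98 in wild-type, *upf1∆*, *set2∆* and double-mutant cells. All 4 values without Upf1 were above all 4 with it, and the log2 ratios of *upf1∆* over wild-type, 1.86 and 1.89, differed by 0.03.

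A second start of the same strand behaved differently. The TSSC from 144421 to 144594, upstream of the annotated RME2 start, had 9 in wild-type, 29 without Upf1, 111 without Rrp6 and 157 in the double mutant. It was highest in the 2 genotypes without Rrp6, with a log2 ratio of 3.49 for *rrp6∆* over wild-type, beside -0.14 at the RME2 start. It had 4, 13, 6 and 12 in the *SET2* experiment. The third opposite-strand TSSC of *IME4*, from 141733 to 141806, is the mRNA start of the neighbour *HOS2*, a histone deacetylase gene. It had 182, 164, 249 and 251, and 147, 150, 183 and 156, with no value more than 2-fold from wild-type. RME2 and IRT1 belong to haploid cells, and in *upf1∆* cells the summed *MATa* markers were lower (5461 in the *RRP6* and 5459 in the *SET2* experiment) and the summed *MATα* markers higher (204 and 160) than in wild-type. Their part in these values was not tested.

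**Figure D2:**
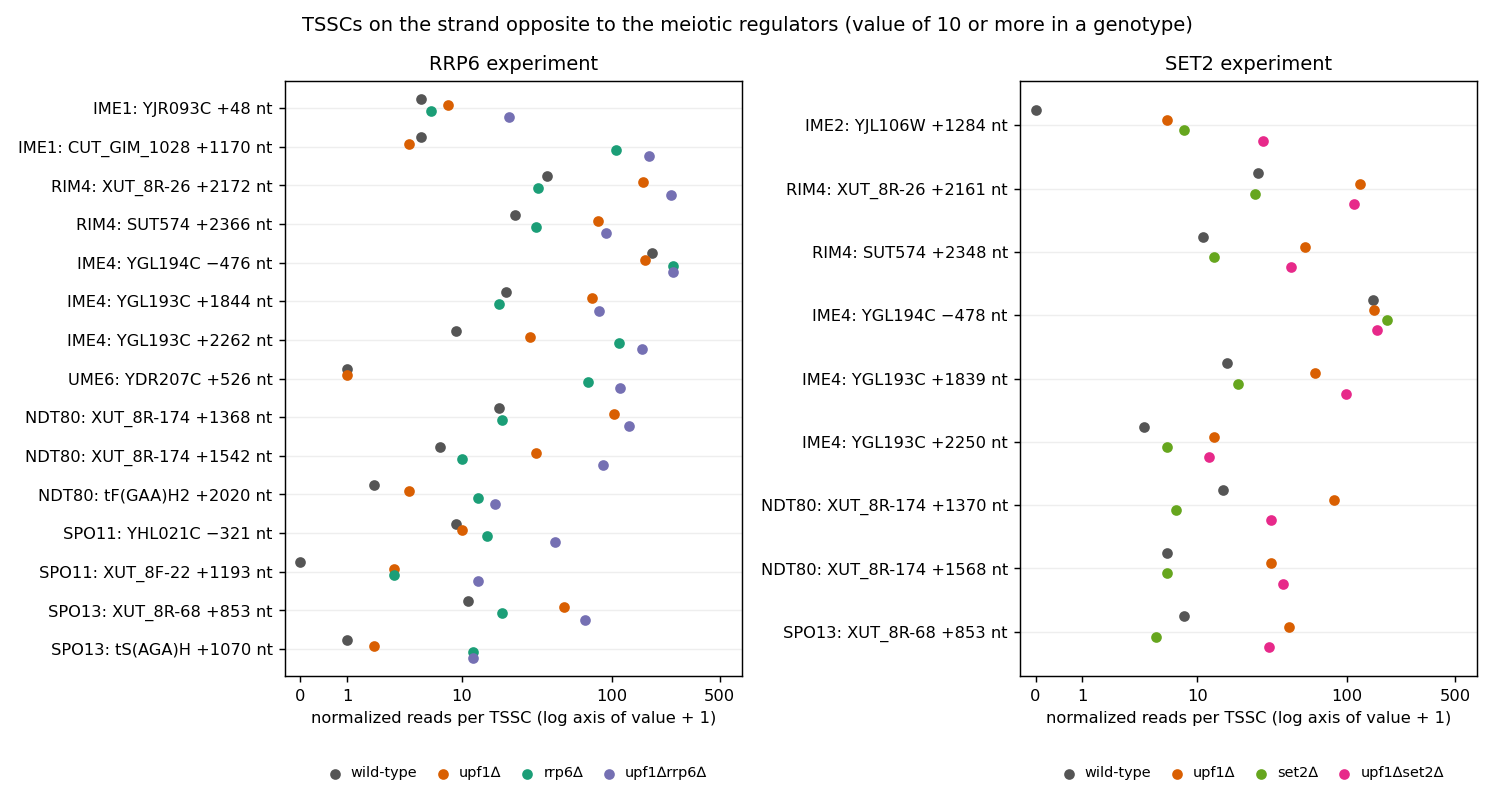
Values of the opposite-strand TSSCs that reach 10 in a genotype, on a log axis of the normalized reads plus 1, with 1 row per TSSC and 1 point per genotype (the authors' pooled value, no error bar). Labels give the gene, the annotation of the TSSC and the distance of its midpoint from the ATG. The XUT and SUT rows show *upf1∆* and the double mutants to the right of the other genotypes, except XUT_8F-22, where *upf1∆* and *rrp6∆* coincide, while CUT_GIM_1028 and the antisense of *UME6* (YDR207C) are far right only without Rrp6.

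*RME1* (YGR044C), the haploid repressor of meiosis that binds upstream of *IME1*, had the highest mRNA value of the 10 genes. Its main TSSC, on the minus strand of chromosome VII from 583967 to 584039, had 369, 352, 270 and 317 in wild-type, *upf1∆*, *rrp6∆* and double-mutant cells. The *SET2* experiment placed it from 583899 to 584039, with 285, 310, 274 and 264. No genotype passed 2-fold in either experiment, and the log2 ratios of *upf1∆* over wild-type were -0.07 and 0.12. In wild-type cells, 71.8% of the mRNA TSSCs of the *RRP6* experiment were lower than it, beside 8.67% for *IME2*, 15.2% for *IME1* and *RIM4* and 20.8% for *UME6*. An internal TSSC of *RME1*, from 583619 to 583683, had 3, 10, 5 and 22 in wild-type, *upf1∆*, *set2∆* and double-mutant cells, and the double mutant was the highest. Its counterpart in the *RRP6* experiment reached 4, and one more internal TSSC of the *SET2* experiment reached 2. A minor mRNA TSSC 7 nt before the ATG reached 5 in the *RRP6* experiment.

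*UME6* (YDR207C), the repressor itself, likewise varied little on its sense strand. Its mRNA TSSC, on the minus strand of chromosome IV from 867567 to 867611, had 32, 33, 33 and 38 in the *RRP6* experiment and 37, 33, 25 and 28 in the *SET2* experiment. Its values lay within a narrow band and none was more than 2-fold from wild-type. Its leader holds 1 ATG, 28 nt after the TSSC, which opens a frame of 7 codons that stops past the *UME6* ATG. This ATG is shown for comparison with that of *IME2*.
UME6 upstream ATG, chrIV:867522-867551: caaaccatttgcATGgaccttaactcacga

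Inside the *UME6* ORF, starts on both strands were seen where a decay or chromatin factor was missing. An antisense TSSC on the plus strand, from 866940 to 867053, had 1 in wild-type, 1 without Upf1, 70 without Rrp6 and 113 in the double mutant. It stood at 1 in both genotypes with Rrp6, and the double mutant exceeded *rrp6∆* by a log2 ratio of 0.68. A sense internal TSSC near the 3′ end of the ORF, from 865251 to 865306, had 2 in wild-type, 3 without Upf1, 23 without Set2 and 54 in the double mutant. Here the 2 genotypes without Set2 were the high ones, and the double mutant was above *set2∆* by 1.20. In the *RRP6* experiment the same internal start reached 5, and another internal TSSC of the *SET2* experiment reached 2.

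**Figure D3:**
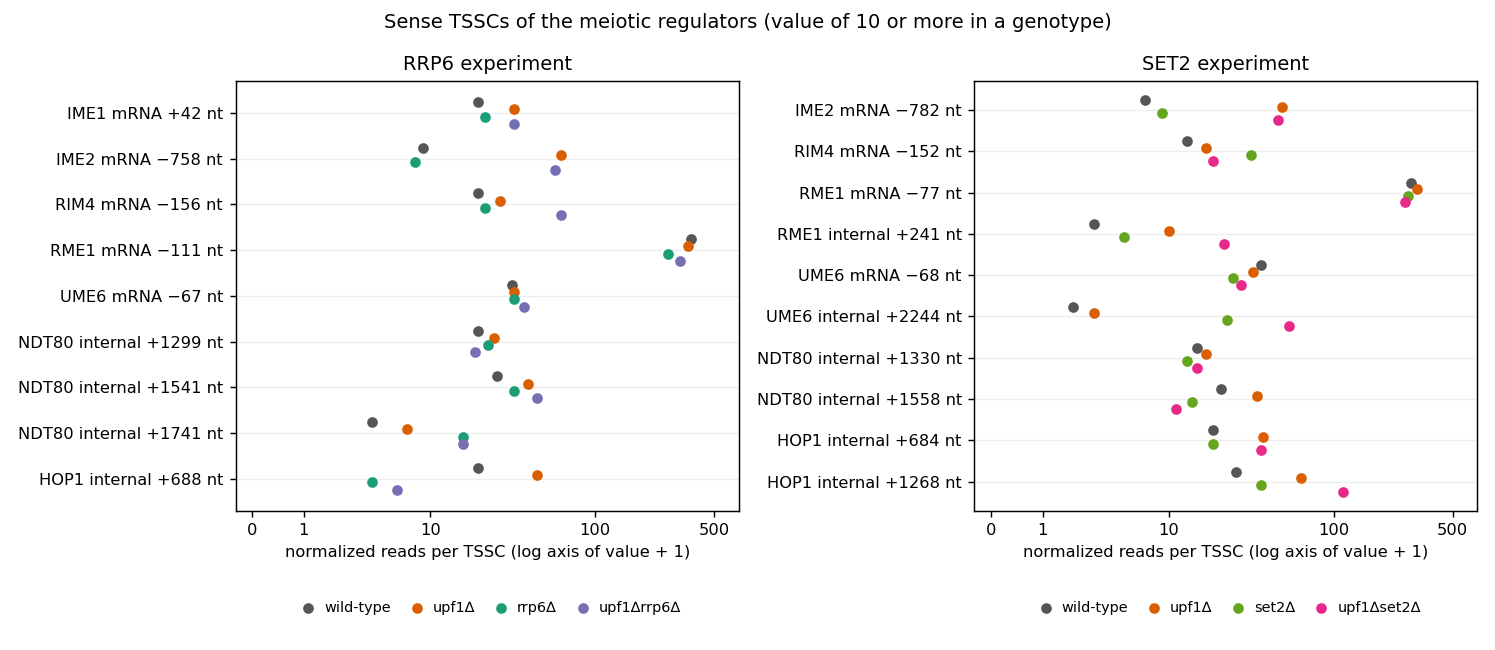
Values of the sense TSSCs that reach 10 in a genotype, on a log axis of the normalized reads plus 1, with 1 row per TSSC and 1 point per genotype (the authors' pooled value, no error bar). Labels give the gene, the kind of TSSC and the distance of its midpoint from the ATG. *IME2* separates genotypes with and without Upf1 in both experiments, *RME1* and *UME6* mRNA points lie close together, and *HOP1* at +688 nt is lowest without Rrp6.

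*NDT80* (YHR124W), which encodes the activator of middle meiotic genes, had no TSSC upstream of its ATG. The 1-nt TSSC called mRNA in the files lies 1118 nt inside the ORF and reached 5. Stronger starts lay further into the ORF, on both strands. The sense internal TSSC from 358049 to 358155 on chromosome VIII had 26, 40, 33 and 45 in wild-type, *upf1∆*, *rrp6∆* and double-mutant cells, and that from 357812 to 357908 had 20, 25, 23 and 19. Neither passed 2-fold in any genotype. Only the internal TSSC nearest to the stop codon, from 358259 to 358345, with 4, 7, 16 and 16, was higher in *rrp6∆* (log2 ratio 1.77).

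The *SET2* experiment's internal TSSCs of *NDT80* had 15, 17, 13 and 15 (357864 to 357918) and 21, 35, 14 and 11 (358084 to 358155) in wild-type, *upf1∆*, *set2∆* and double-mutant cells. Their values in *set2∆* cells were below those of wild-type, with log2 ratios of -0.19 and -0.55, and one more TSSC stood at 1. Over all sense internal TSSCs the median log2 ratio of *set2∆* over wild-type was 1.26.

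The opposite strand of *NDT80* carried XUT_8R-174, with 2 starts. The first, from 357867 to 357992, had 18, 103, 19 and 129 in wild-type, *upf1∆*, *rrp6∆* and double-mutant cells. The second, from 358048 to 358159, had 7, 32, 10 and 88. Both were high without Upf1, with log2 ratios of 2.45 and 2.04 in *upf1∆*. They overlap the sense internal TSSCs above, whose ratios in *upf1∆* were 0.31 and 0.60, so the response differed between the strands at one place. The 2 starts had, in the *SET2* experiment, 15, 82, 7 and 32, and 6, 32, 6 and 38. The log2 ratio of *upf1∆set2∆* over *upf1∆* was -1.33 at the first and 0.24 at the second. The other 2 opposite-strand TSSCs lie at the 3′ end. That at the tRNA gene tF(GAA)H2, one of a family of near-identical genes whose reads are uncertain, had 2, 4, 13 and 17, and reached 4 in the *SET2* experiment. The last, an antisense TSSC in the ORF, reached 8.

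*SPO11* (YHL022C), the gene of the protein that makes meiotic DNA breaks, had no mRNA TSSC, and its sense internal TSSCs reached at most 2. On the opposite strand, at the 3′ end of the ORF, the TSSC of XUT_8F-22 on chromosome VIII, from 62946 to 62982, had 0, 3, 3 and 13 in wild-type, *upf1∆*, *rrp6∆* and double-mutant cells. It was listed at 0 in wild-type and highest in the double mutant. Upstream of the *SPO11* ATG, a TSSC antisense to the neighbour *AIM17*, from 64423 to 64533, had 9, 10, 15 and 43. At this one, only the double mutant passed 2-fold, with a log2 ratio of 2.14. The counterpart in the *SET2* experiment reached 6.

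*HOP1* (YIL072W), the gene of a protein of the meiotic chromosome axis, was read only from internal starts. The TSSC from 227246 to 227333 on chromosome IX, 644 to 731 nt into the ORF, had 20 in wild-type, 45 without Upf1, 4 without Rrp6 and 6 in the double mutant. Both genotypes without Rrp6 were low, and it was the only TSSC of the 10 genes that was more than 2-fold lower in *rrp6∆* than in wild-type (log2 ratio -2.07). The same start had, in the *SET2* experiment, 19, 38, 19 and 37, with a log2 ratio of 0.96 in *upf1∆*, beside 1.13 in the *RRP6* experiment. So *upf1∆* was on either side of 2-fold in the 2 experiments while its ratio moved by 0.17. A broader internal TSSC, from 227748 to 227993, was listed only in the *SET2* experiment, with 26, 64, 37 and 114. It was highest in *upf1∆set2∆* cells, with log2 ratios of 1.27 in *upf1∆*, 0.49 in *set2∆* and 2.09 in the double mutant. One more internal TSSC reached 6. The opposite-strand TSSCs of *HOP1*, 1 in the *RRP6* and 2 in the *SET2* experiment, reached at most 7.

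*SPO13* (YHR014W), a regulator of chromosome segregation in the first meiotic division, had no sense TSSC in either experiment. XUT_8R-68 starts over the 3′ end of its ORF, from 132866 to 132934 on the minus strand of chromosome VIII. It had 11, 49, 19 and 67 in wild-type, *upf1∆*, *rrp6∆* and double-mutant cells, and 8, 42, 5 and 31 in wild-type, *upf1∆*, *set2∆* and double-mutant cells. The genotypes without Upf1 were above those with it in both experiments, with log2 ratios of 2.06 and 2.26 in *upf1∆*. A TSSC at the tRNA gene tS(AGA)H, also one of a family of near-identical genes, had 1, 2, 12 and 12 in the *RRP6* experiment.

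In the *RRP6* experiment, the opposite-strand TSSCs that reached 10 and were higher in *upf1∆* are followed by first reading frames of at most 48 codons. The antisense TSSC of *IME2*, which reached 4 there, has a first frame of 73 codons. The first ATG after each of the 15 opposite-strand TSSCs with a value of 10 or more in the *RRP6* experiment lay 7 to 193 nt downstream, and the frame from it ran for a median of 27 codons. The longest frame, 452 codons, is that of the *HOS2* mRNA. Apart from *HOS2*, the TSSCs that reached 10 and were not higher in *upf1∆* had frames of 2, 9, 14, 31, 46 and 144 codons. Frame lengths over all opposite-strand TSSCs were not computed. A short frame is therefore not shown to be particular to the TSSCs that were higher in *upf1∆*. The frames of the 4 transcripts below lie wholly inside the ORF that they oppose. They are shown because an early stop codon is known to expose a translated RNA to NMD, with the ATG and the stop codon in capitals, on the strand of the antisense RNA.
RME2, opposite to IME4, chrVII:143878-143976: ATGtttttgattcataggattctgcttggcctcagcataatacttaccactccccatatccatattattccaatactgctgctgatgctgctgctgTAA
XUT_8R-26, opposite to RIM4, chrVIII:58715-58732: ATGaattcgttcgcaTGA
XUT_8R-174, second start, opposite to NDT80, chrVIII:358017-358037: ATGctaatgagcctacttTGA
XUT_8R-68, opposite to SPO13, chrVIII:132768-132845: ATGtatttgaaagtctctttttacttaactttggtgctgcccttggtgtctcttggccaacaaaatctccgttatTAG

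The frames of these 4 RNAs hold 32, 5, 6 and 25 codons before the stop. The frame depends on where a TSSC ends: after the XUT_8R-26 TSSC of the *SET2* experiment, the first ATG is at 58718 and opens 11 codons. A short frame was also found where *upf1∆* was not above wild-type. CUT_GIM_1028 opposite to *IME1* opens with a frame of 14 codons and had 5 in wild-type and 4 in *upf1∆* cells. These values are low, and without Rrp6 the CUT had 107 with Upf1 and 176 without it (log2 ratio 0.71). The antisense of *UME6* opens with a frame of 144 codons. It had 1 in wild-type and *upf1∆*, 70 in *rrp6∆* and 113 in the double mutant (log2 ratio 0.68 over *rrp6∆*).

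At the sense internal TSSCs, the first ATG was in frame with the ORF for 3 of 7 in the *RRP6* experiment and for 5 of 15 in the *SET2* experiment. Over all sense internal TSSCs these shares were 22.9% and 27.4%. The *HOP1* start at 644 to 731 nt is followed by an in-frame ATG that leaves 348 codons of Hop1. The broader *HOP1* start of the *SET2* experiment meets an out-of-frame ATG with a stop codon directly after it. The *UME6* start that was high without Set2 also meets an out-of-frame ATG, with a frame of 16 codons.

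By class, at most 2 mRNA TSSCs of the 10 genes were higher in any mutant. With 9 and 6 TSSCs, these counts are too coarse to set the genes apart from all mRNA TSSCs. In *upf1∆*, 1 of 9 was higher than in wild-type in the *RRP6* experiment, beside 13.5% of all mRNA TSSCs, and 2 of 6 in the *SET2* experiment, beside 13.7%. The 2 are both starts of *IME2*. In *rrp6∆* none of 9 was higher, beside 4.29%, and in *upf1∆rrp6∆* 2 were, *IME2* and *RIM4*, beside 18.6%. In *set2∆* 1 of 6 was higher, beside 3.77%, and in *upf1∆set2∆* 2 were, beside 16.2%.

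The sense internal TSSCs were higher in *upf1∆* for 2 of 7 in the *RRP6* experiment, beside 43.4% of all sense internal TSSCs, and for 2 of 15 in the *SET2* experiment, beside 21.5%. In *rrp6∆*, 2 of 7 were higher and 1 lower, beside 10.6% and 7.59%. In *set2∆*, 2 of 15 were higher, beside 51.9%, and in *upf1∆set2∆* 7 of 15 were, beside 78.4%. In *upf1∆rrp6∆* 2 of 7 were higher, beside 48.1%. The share was below that of all sense internal TSSCs in these comparisons except for *rrp6∆*. With 7 and 15 TSSCs, several of them at values under 10, these shares are coarse.

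On the opposite strand, *upf1∆* exceeded wild-type at 14 of 23 TSSCs in the *RRP6* experiment, and none was lower. The background for higher is 33.2% of the 8825 TSSCs that lie opposite to or near any protein-coding ORF by the same rule, and 0.623% of these were lower. In the *SET2* experiment 8 of 15 were higher, beside 31.8%, and none was lower, beside 0.619%. The median log2 ratio was 1.58 and 1.49, beside 0.58 in both backgrounds. In *rrp6∆*, 8 of 23 were higher, which is near the background of 36.1%. In *upf1∆rrp6∆*, 21 of 23 were, beside 64.9%. In *set2∆*, 1 of 15 was higher, beside 25.4%, and in *upf1∆set2∆* 11 of 15, beside 59.6%. Against *rrp6∆*, the double mutant was higher for 14 of 23, beside 39.5%, and against *set2∆* for 9 of 15, beside 41.8%. Many of these TSSCs have low values. One with almost no reads in wild-type can be listed through its mutant values alone and cannot be counted as lower. With a pseudocount of 5, which weighs low values less, 7 of 23 were higher in *upf1∆* in the *RRP6* and 7 of 15 in the *SET2* experiment. The background was not recomputed with this pseudocount. With a mean of at least 10 required of a TSSC, 7 of 8 were higher in *upf1∆* and 3 of 10 in *rrp6∆* in the *RRP6* experiment. The mean is that of the 2 genotypes compared, so a TSSC low in wild-type can pass through its mutant value. The share over all opposite-strand TSSCs was not computed with this filter, so the 2 counts with the mean of at least 10 have no background.

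These counts can be set out by the class of transcript, with few TSSCs in each. All 8 XUT and SUT TSSCs of the *RRP6* experiment were higher in *upf1∆*, beside 57.4% of all XUT and SUT TSSCs. The log2 ratio was 1.79 to 2.45 at the 5 with more than 3 in wild-type. In the *SET2* experiment 5 of 7 were, beside 59.0%. These TSSCs come from 5 transcripts in the *RRP6* experiment, so they are not independent. Only 1 of the 8, XUT_8F-22, was higher in *rrp6∆*, beside 28.9%. Of the 3 CUT TSSCs, 2 were higher in *rrp6∆*, beside 79.6%, and 1 in *upf1∆*, beside 26.2%; 2 of the 3 reached at most 5. Of the 4 antisense TSSCs outside these classes, 1 was higher in *upf1∆*, beside 35.1%, and 2 in *rrp6∆*, beside 46.3%. Of the 3 intergenic TSSCs, 2 were higher in *upf1∆*, beside 41.8%, and none in *rrp6∆*, beside 33.0%. Of the 3 TSSCs annotated to a neighbouring mRNA, all opposite to *IME4*, 2 were higher in *upf1∆* and 1 in *rrp6∆*, beside 13.5% and 4.29% of all mRNA TSSCs. Neither of the 2 at tRNA genes was higher in *upf1∆* and both were in *rrp6∆*, beside 10.4% and 31.7% of TSSCs of stable non-coding RNAs.

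The response to *upf1∆* was measured in both experiments for 24 pairs of overlapping TSSCs of the 10 genes. Of these, 10 were higher in both experiments, 13 in neither and 1, that of *HOP1*, in one only. Among all pairs of the tables, 30.8% were higher in both. Of the 12 opposite-strand pairs, 8 were higher in both. The share of 30.8% covers pairs of every class, and that over all opposite-strand pairs was not computed. The difference between the experiments was within 1 SD at its level for 20 of the 24 pairs, and the largest, 1.49, was at the antisense TSSC of *IME2*, where the values were low. A TSSC of one table that overlaps a pair of TSSCs in the other enters more than once, as for *RME1* and *NDT80*. The experiments used separate libraries of the same 2 genotypes.

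**Figure D4:**
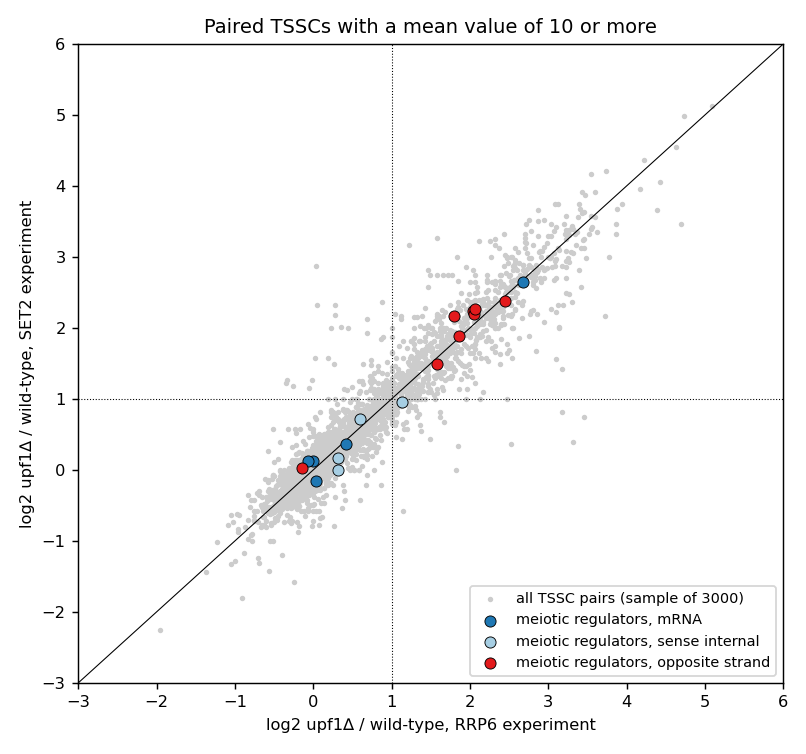
Log2 ratio of *upf1∆* over wild-type in the *RRP6* experiment (x axis) and the *SET2* experiment (y axis) for paired TSSCs with a mean value of 10 or more. Grey points are a sample of 3000 pairs of all TSSCs, coloured points the meiotic regulators, dotted lines the 2-fold limit and the solid line equality. All opposite-strand points shown for the 10 genes but that of *HOS2* lie past 2-fold in both experiments, and *IME2* is the only mRNA point there. The mean is over wild-type and *upf1∆*, so a pair low in wild-type can enter through *upf1∆*. The opposite-strand pairs at *IME1*, *SPO11* and tF(GAA)H2, which were not higher, and at *IME2*, which was higher, fall under this mean. No share of all opposite-strand pairs was computed.

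Among other meiotic genes, most early genes with an mRNA TSSC were higher in *upf1∆*. Of 25 early genes of recombination and the chromosome axis, 13 had an mRNA TSSC in the *RRP6* experiment, and the main TSSC of 9 of these was higher, beside 10.0% of all genes with one. In the *SET2* experiment 8 of 14 were, beside 10.2%. *REC107*, which is needed for meiotic breaks, had 407, 2087, 386 and 1973 in wild-type, *upf1∆*, *rrp6∆* and double-mutant cells, and 299, 1691, 335 and 1730 in the *SET2* experiment. As at *IME2*, both genotypes without Upf1 were above both with it. *RED1*, a partner of Hop1 in the axis, had 12, 48, 15 and 54. The median wild-type value of the early list was 15.0, beside 162 over all genes, and in the *SET2* experiment 8.0 beside 121. A gene with low values can be listed only through the genotypes where it is high. *REC104*, for one, had 0, 2, 0 and 2 in the *RRP6* experiment. Early genes without a listed mRNA TSSC are not counted. The shares of the early list and of all genes are therefore not a like comparison.

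The middle genes are activated by Ndt80 when meiosis runs. In *upf1∆*, 3 of 9 with an mRNA TSSC were higher in the *RRP6* experiment, beside 10.0% of all genes. In the *SET2* experiment 3 of 6 were, beside 10.2%. The median wild-type values of this list were 5.0 and 15.5, so these genes too can be listed only through the genotypes where they are high. *SPS4*, a gene of sporulation, had 8, 37, 10 and 44 in the *RRP6* experiment, and *DIT1*, of spore wall synthesis, had 32, 158, 10 and 54. Of 20 genes of the entry and repression machinery, 18 had an mRNA TSSC and none was higher or lower in *upf1∆* in either experiment. Over all genes, 10.0% and 10.2% were higher, and 25 of 5231 and 31 of 5234 were lower. With 18 genes, a count of none is little different from these shares. The 18 include *SIN3*, *RPD3* and *UME1*, whose products form the deacetylase that Ume6 recruits. *RIM15*, a kinase gene, had 43, 47, 157 and 173 in the *RRP6* experiment and was the only one of them more than 2-fold higher in *rrp6∆*, beside 3.21% of all genes.

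**Figure D5:**
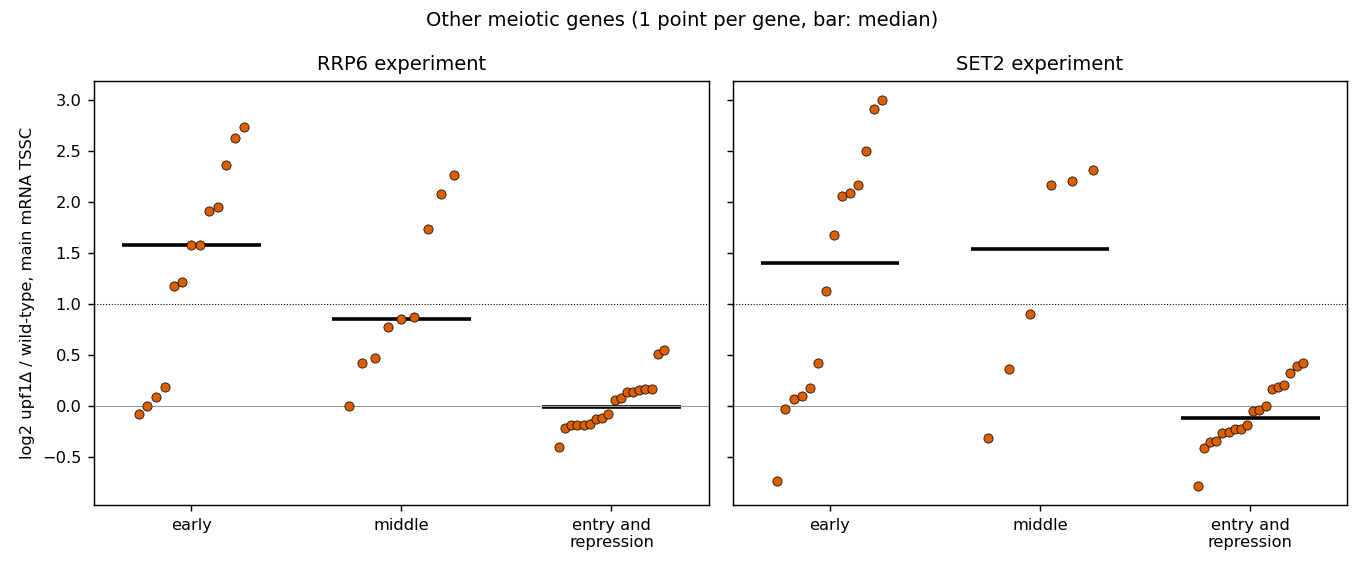
Log2 ratio of *upf1∆* over wild-type of the main mRNA TSSC of each gene in 3 lists of other meiotic genes, with 1 point per gene and a bar at the median. The dotted line is the 2-fold limit. The median of the early list is 1.58 in the *RRP6* and 1.41 in the *SET2* experiment, that of the entry and repression list -0.01 and -0.12.

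The 6 log2 ratios to wild-type of the main mRNA TSSC, 3 from each experiment, were compared with those of 5143 mRNA TSSCs that had a summed value of 50 or more in both tables. The main mRNA TSSC of 4 of the 10 genes qualified, and the 3 with the longest profile were *IME2* (5.25), *RIM4* (2.17) and *UME6* (0.73). The nearest to *IME2* were YMR155W, at a Euclidean distance of 0.28, and *NBL1*, at 0.45. The nearest to *RIM4* were *ISF1* (0.76) and *MTH1* (0.84), which is less close. The nearest to *UME6* were *MRN1* (0.18) and YDR248C (0.20).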

How the data were processed

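Capped 5′-ends of poly(A)+ RNA were sequenced in 2 experiments of 12 libraries each. The authors removed duplicates by a random tag, aligned reads with Bowtie2 to S288C R64, grouped 5′-ends into TSSCs over the libraries of an experiment, filtered these on the cap signal and on the start base, and normalized with DESeq2 (SARTools) on the reads found just 5′ of ORF ATGs. The score values, as deposited, are these normalized reads, rounded, with 1 pooled value a genotype. The pooling was inferred to be a mean over 3 libraries. Depth and spread of single libraries are not in the values used here, so precision rests on the ratio of *upf1∆* over wild-type, which both experiments measured. Columns of the authors' comparisons (log2 fold changes and p-values) were not used. The 8 libraries with or without TAP and the 8 RNAseq libraries were not analysed here.

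With Python 3.11.15 (pandas 2.3.3, numpy 2.4.6), log2 ratios were taken with a pseudocount of 1, and TSSCs past 2-fold were counted beside the same count over all TSSCs. The alternatives were pseudocounts of 0.5 and 5, a mean of at least 10, centring on all mRNA TSSCs, a 3-fold limit and windows of 0 and 1000 nt. The counting was tested on simulated data, with changes planted only at wild-type values that most TSSCs here do not reach. The test therefore does not cover TSSCs with low values. All 10 genes are named, with every value of a TSSC where one genotype reached 10; IRT1 is given as context. The ORF coordinates are those of the files, which place the ATG of *IME1* downstream of that in RefSeq, and those of RefSeq (R64) for *IME4* and *SPO13*. Sequences are from RefSeq R64. The genes and lists were chosen with earlier results of these data known.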

Additional observations from a re-analysis of the deposited data

How the results depend on the processing

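No paired analysis was possible because the tables hold 1 pooled value per genotype, and no library was left out in turn for the same reason. Each count of TSSCs more than 2-fold higher was recomputed: of 171 recomputed counts, 113 stayed within 1.5 times and 58 moved. Centring on the median of all mRNA TSSCs, at most 0.28 on the log2 scale, moved none of 31. The settings for the lists of other meiotic genes and for the paired experiments were chosen after seeing the data. Comparisons are written mutant over control.

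For mRNA TSSCs in the *SET2* experiment, a pseudocount of 5, a mean of at least 10 (4 TSSCs in place of 6) and a 3-fold limit each left 1 in place of 2 for *upf1∆*, the double mutant, and the double mutant over *set2∆*. The 3-fold limit left 0 of 1 for *set2∆* and, in the *RRP6* experiment, 1 of 2 for the double mutant over *rrp6∆*.

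For sense internal TSSCs in the *RRP6* experiment, *upf1∆* had 0 with a pseudocount of 5, 1 of 3 with a mean of at least 10 and 0 past 3-fold. Both *rrp6∆* and the double mutant had 1 under each of these settings, of 4 with the mean of at least 10. The double mutant over *rrp6∆* had 0 with the pseudocount of 5 and 0 of 3 with the mean of at least 10. In the *SET2* experiment, a pseudocount of 0.5 gave 4 for *upf1∆* and 5 for *set2∆*, and a pseudocount of 5 gave 1 for each, 4 for the double mutant and 3 for it over *set2∆*. The mean of at least 10 gave 1 of 4, 1 of 5, 3 of 6 and 3 of 6 in this order, and 3-fold gave 0 for *upf1∆*, 4 for the double mutant and 3 for it over *set2∆*.

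For opposite-strand TSSCs in the *RRP6* experiment, *upf1∆* had 7 of 23 with a pseudocount of 5, 7 of 8 with a mean of at least 10, 9 of 23 past 3-fold and 8 of 11 with midpoints within the ORF. The counts for *rrp6∆* were 5 of 23 with the pseudocount of 5, 3 of 10 with the mean of at least 10 and 4 of 11 within the ORF, and for the double mutant 11 of 12 with the mean of at least 10 and 11 of 11 within the ORF. The double mutant over *rrp6∆* had 9 of 23, 8 of 14 and 9 of 11 under the pseudocount of 5, the mean of at least 10 and the ORF window. In the *SET2* experiment, the ORF window gave, of 7, 4 for *upf1∆*, 6 for the double mutant and 5 for it over *set2∆*. For *set2∆*, a pseudocount of 0.5 gave 2 of 15, the mean of at least 10 gave 0 of 5 and the 1000 nt window 6 of 27. The double mutant had 6 of 15 with the pseudocount of 5, 7 of 8 with the mean of at least 10, 7 of 15 past 3-fold and 20 of 27 within 1000 nt.

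Of the early meiotic genes in the *RRP6* experiment, 5 of 13 were more than 3-fold higher in *upf1∆*. The ORF window and the filter test fewer TSSCs, so their counts are to be read with the numbers tested. The shares over all TSSCs and all genes were not recomputed under these settings, so the recomputed counts have no background.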

Other observations

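Some meiotic genes outside the 10 had main mRNA TSSCs that were lower in *rrp6∆* or *set2∆* cells. *MSH5*, of meiotic crossover formation, had 91, 355, 31 and 32 in wild-type, *upf1∆*, *rrp6∆* and the double mutant. In the *SET2* experiment its values were 64, 275, 94 and 682, the last being the highest. *GAS4*, of spore wall assembly, had 134, 230, 133 and 220 in the *RRP6* experiment, and 114, 213, 16 and 46 in the other, where both genotypes without Set2 were low. *SSP1*, which acts in the shaping of the spore membrane, had 34, 44, 9 and 17 there, and *DIT1* 26, 124, 5 and 39. *DMC1*, the meiotic recombinase gene, had 7, 8, 1 and 1. These genes were picked after their values were seen.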
